A study of Mus musculus with 15 samples.

Results

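The clock output transcription factors are 7 genes, Dbp, Tef, Hlf, Nfil3, Ciart, Bhlhe40 and Bhlhe41, among 55357 genes counted in mouse cornea. They were taken by name, as the PAR bZIP factors with their competitor Nfil3, the repressor Ciart and the pair of Dec repressors. The set was also selected on measured values, since the genotype differences of several of these genes at 6 months were known when it was drawn up. Comparisons of the factors between groups that use 6-month libraries are therefore descriptions. Fold changes, errors and counts past a threshold are given beside the same counts over all genes. No p-value is printed for them, and none of them is a test of the set. All 7 had counts, and 6 of them passed the filter on low counts, Nfil3 being the exception.

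In the circadian clock, Clock and Bmal1 (listed under its older symbol Arntl) bind E-box motifs and switch on Per and Cry genes, whose proteins then shut that activity down. The same E-boxes drive output factors. Dbp, Tef and Hlf are activators with a proline- and acid-rich domain and a basic leucine zipper (PAR bZIP). They bind D-box motifs and pass the rhythm on to genes of metabolism and detoxification, and Nfil3 (E4bp4) represses from the same motifs. Ciart (Chrono) represses Clock-Bmal1 activity, and Bhlhe40 (Dec1) and Bhlhe41 (Dec2) are basic helix-loop-helix repressors that compete at E-boxes. In cornea the renewal of the epithelium is known to follow a daily rhythm.

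The study set out to compare the transcriptome of corneas from animals heterozygous at Opa1 (OPA1+/-) with that of OPA1+/+ animals at 3 and 6 months. Total RNA from whole cornea was sequenced in 4 OPA1+/- and 4 OPA1+/+ libraries at 3 months, and in 4 OPA1+/- and 3 OPA1+/+ libraries at 6 months. The labels name no other allele or treatment, and give neither the strain, the kind of Opa1 allele, the number of animals in a library nor the hour of dissection. Every p-value is thus set against the variation among these libraries, which may be partly technical.

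Libraries held 11673240 to 18194946 counts. Opa1, which encodes a GTPase of inner mitochondrial membrane fusion, had 45.4 to 57.7 counts per 1e6 counts of the library (CPM) in 8 OPA1+/- libraries, against 65.1 to 73.3 CPM in 7 OPA1+/+ libraries. Summed markers of corneal epithelium (8 genes, Krt12 among them) reached 68570 to 80820 CPM in every library. Summed markers of retina (10 genes, 8 of them tested) stood apart in OPA1+/- at 3 months replicate 4 (165 CPM) and OPA1+/+ at 6 months replicate 1 (157 CPM), against 13.3 to 26.5 CPM in the other 13 libraries. Pde6b, Rcvrn, Pdc and Crx of that list were at 0 in some library. Summed markers of lens (10 genes, 6 of them tested) were highest in OPA1+/- at 3 months, in replicate 4 (114 CPM) and replicate 3 (32.9 CPM), against 4.81 to 23.65 CPM in the other libraries. Of these 10 lens genes, 9 were at 0 in some library. Conjunctival markers overlapped between genotypes at both ages, at 377.5 to 716 CPM in OPA1+/- and 537.5 to 753 CPM in OPA1+/+ libraries at 3 months, and 368 to 562 CPM in OPA1+/- and 401 to 715 CPM in OPA1+/+ libraries at 6 months. Each library also held Xist, at 1433 to 1969 raw CPM, and 126 to 172 raw CPM of 4 Y-linked genes, so each contained RNA of both sexes.

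Promoter sequence is shown because the E-box is a motif through which the clock is known to reach several of these genes. RefSeq promoters (build GRCm38.p6) were at hand for 6 of the 7 genes, with 7 start sites, and the 250 bases before each start were searched on both strands. Sequence outside those windows, introns downstream of the start included, was not searched, so a window without a match does not mean a gene without the motif. The E-box CACGTG was found in 3 of those genes, Ciart, Tef and Bhlhe41, and in 6.02% of all 32851 mouse promoters. Ciart held 3 copies, at -116 to -111, -58 to -53 and -44 to -39 from its start, a number reached by 20 promoters (0.0609%). Both Tef starts held 1 copy, and Bhlhe41 held 1 at -153 to -148. All 250 bases of the window of the first Tef start lay in annotated exons of Tef, so that window is not printed. Exons also took up 159 bases of the window of Dbp, 138 of Bhlhe41, 34 of Nfil3 and 23 of Ciart. The D-box, searched as TTATGTAA or TTACGTAA, was in none of them and in 0.931% of all promoters. The core of the element bound by Ror and Rev-erb receptors, TAGGTCA, was in Nfil3 alone and in 2.23% of all promoters. Stretches outside annotated exons follow, written 5′ to 3′ on the strand of the gene, with each E-box in capitals. Hlf is shown beside them as a window in which those letters were not found.
Ciart, chr3:95882252-95882369, minus strand: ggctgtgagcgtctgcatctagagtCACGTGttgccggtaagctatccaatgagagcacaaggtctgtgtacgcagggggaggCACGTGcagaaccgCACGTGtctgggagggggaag
Tef, second start, chr15:81811251-81811306, plus strand: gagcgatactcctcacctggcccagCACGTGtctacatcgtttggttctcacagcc
Bhlhe41, chr6:145865559-145865598, minus strand: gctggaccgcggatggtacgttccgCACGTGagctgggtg
Hlf, chr11:90390918-90391017, minus strand: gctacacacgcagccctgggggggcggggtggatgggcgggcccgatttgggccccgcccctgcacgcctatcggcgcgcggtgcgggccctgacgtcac
Of the E-boxes of Ciart, 2 lie close together near the start and 1 lies farther upstream. A match to these letters is a description of the sequence and not a measured binding site.

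Corrected for exon length, Hlf was the most abundant of the 7, with a median of 137.8 CPM per kilobase of exon over the 15 libraries, and its lowest library stood above every value of the other factors on that scale. Dbp (55.3), Bhlhe40 (48.7) and Tef (42.0 CPM per kilobase) followed, and their ranges over libraries overlapped. Bhlhe41 (5.88) and Ciart (5.62 CPM per kilobase) were several times lower, again with overlapping ranges. Nfil3 was last at 0.147 CPM per kilobase. Of the PAR bZIP activators and the repressor that shares their motif, the cornea libraries thus held 3 well-covered activators and a repressor close to the detection limit.

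**Figure D1:**
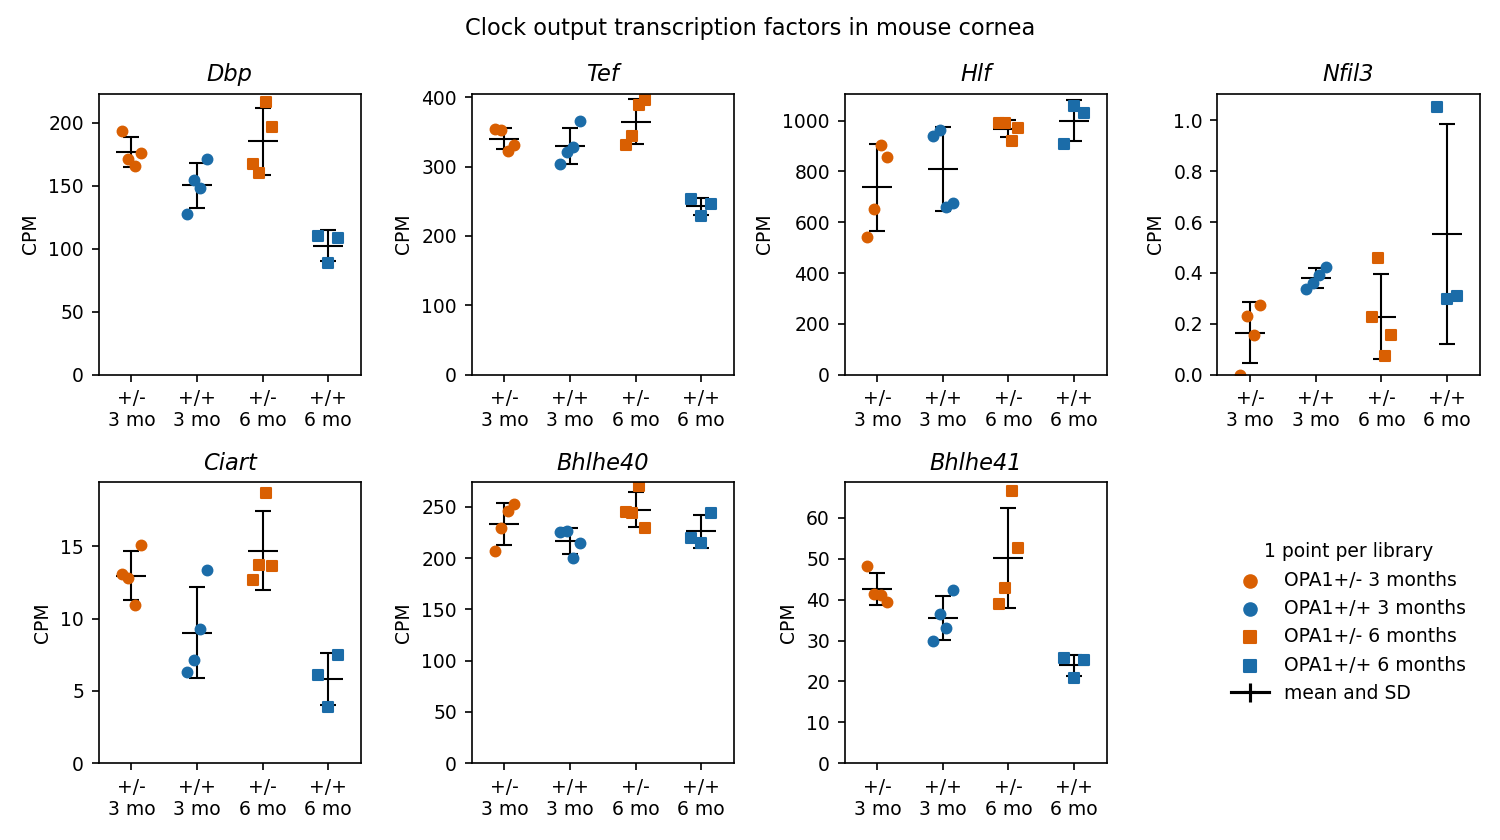
Level of each of the 7 factors in CPM (vertical axis, from 0), with 1 point per library, the 4 groups along the horizontal axis, and the mean and SD as bars. The 3 OPA1+/+ libraries at 6 months lie below all the other 12 for Dbp, Tef and Bhlhe41, and Hlf is spread widely at 3 months.

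Dbp, an activator whose transcript is among the most strongly rhythmic in mouse tissues, had 194, 172, 166 and 176 CPM in OPA1+/- libraries at 3 months, against 128, 155, 148 and 171 CPM in OPA1+/+ libraries. At 6 months it had 167, 160.0, 217 and 196.5 CPM in OPA1+/- libraries, against 110.2, 88.3 and 109 CPM in OPA1+/+ libraries. The genotypes overlapped at 3 months and did not at 6 months, where the 3 OPA1+/+ libraries were the lowest of all 15.

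Tef, the PAR bZIP factor first known from the pituitary, had 354.5, 352, 323 and 331 CPM in OPA1+/- libraries at 3 months, against 304, 321, 329 and 365.5 CPM in OPA1+/+ libraries. The 6-month values were 330.5, 344, 388 and 396 CPM in OPA1+/- libraries, against 253, 229 and 246 CPM in OPA1+/+ libraries. Again the genotypes were mixed at 3 months, and the 3 OPA1+/+ libraries at 6 months lay below the other 12.

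Hlf, named for its part in a leukaemia fusion protein, was spread widely at 3 months and narrowly at 6 months. At 3 months it had 541, 650.2, 903 and 857 CPM in OPA1+/- libraries, against 938, 963, 658 and 675 CPM in OPA1+/+ libraries. Each genotype held a pair of high and a pair of low libraries, so the genotypes overlapped fully. Its 6-month levels were 991, 988, 920.5 and 972 CPM in OPA1+/- libraries, against 907, 1059 and 1030 CPM in OPA1+/+ libraries, again with overlap. The SD of log2 CPM was 0.35 in OPA1+/- and 0.30 in OPA1+/+ libraries at 3 months, and 0.05 in OPA1+/- and 0.12 in OPA1+/+ libraries at 6 months.

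Nfil3 was read 0, 3, 2 and 5 times in OPA1+/- libraries at 3 months, against 4, 5, 5 and 5 times in OPA1+/+ libraries. At 6 months it was read 3, 6, 1 and 2 times in OPA1+/- libraries, against 14, 4 and 4 times in OPA1+/+ libraries. A count of 0 allows up to 3 counts, or 0.165 to 0.257 CPM at these depths. In CPM its genotypes did not overlap at 3 months, at 0 to 0.274 CPM in OPA1+/- and 0.337 to 0.425 CPM in OPA1+/+ libraries, a separation that 4.58% of all tested genes had. They overlapped at 6 months. With no filter on low counts its adjusted p at 3 months was 0.776 with edgeR over 31669 genes, and a difference was not detectable at these few counts.

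Ciart had 13.1, 12.8, 10.95 and 15.1 CPM in OPA1+/- libraries at 3 months, against 6.32, 7.175, 9.27 and 13.35 CPM in OPA1+/+ libraries. At the later age it had 12.7, 13.7, 18.7 and 13.7 CPM in OPA1+/- libraries, against 6.09, 3.88 and 7.45 CPM in OPA1+/+ libraries. At 3 months OPA1+/+ replicate 4 alone reached into the range of OPA1+/- libraries, and at 6 months the genotypes did not overlap.

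Bhlhe40, a Dec repressor that also responds to hypoxia, had 207, 229, 246 and 253 CPM in OPA1+/- libraries at 3 months, against 226, 227, 200.1 and 215 CPM in OPA1+/+ libraries. The values at 6 months were 245, 244, 271 and 229 CPM in OPA1+/- libraries, against 219, 215 and 244 CPM in OPA1+/+ libraries. The genotypes overlapped at both ages.

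Bhlhe41, the other Dec repressor, had 48.3, 41.4, 41.1 and 39.5 CPM in OPA1+/- libraries at 3 months, against 30.0, 36.6, 33.15 and 42.4 CPM in OPA1+/+ libraries. Its levels at 6 months were 39.0, 42.8, 66.5 and 52.7 CPM in OPA1+/- libraries, against 25.65, 20.95 and 25.2 CPM in OPA1+/+ libraries. Its order of groups was that of Dbp and Tef, with the OPA1+/+ libraries at 6 months lowest of the 15.

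At 3 months, none of the 6 tested factors passed the test between genotypes, and the libraries of the genotypes overlapped for all 6. The smallest adjusted p-values were 0.492 for Ciart, which averaged 12.98 ± 1.68 CPM in OPA1+/- and 9.03 ± 3.14 CPM in OPA1+/+ libraries (SD, n = 4 each), and 0.571 for Dbp, at 177 ± 12.1 CPM in OPA1+/- and at 150.5 ± 18.0 CPM in OPA1+/+ libraries (edgeR quasi-likelihood test, Benjamini-Hochberg over all 15770 tested genes). Their log2 fold changes were 0.53 ± 0.22 and 0.23 ± 0.11 (SE). The others were 0.26 ± 0.16 for Bhlhe41 (adjusted p 0.669), 0.11 ± 0.06 for Bhlhe40 (0.660), 0.05 ± 0.06 for Tef (0.873) and -0.13 ± 0.17 for Hlf (0.860), all with edgeR. In this comparison 0.00634% of all tested genes passed an adjusted p of 0.05, a single gene, Opa1. At an unadjusted p under 0.05, 1 of the 6 passed, beside 1424 of all 15770 genes, and DESeq2 called 0 of the 6 and 41 of all genes. The median log2 fold change of the 6 was 0.17, beside 0.00 for all tested genes.

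At 6 months, 4 of the 6 factors were past the threshold, all higher in OPA1+/- corneas, where 0.323% of all tested genes passed (0.159% higher). Ciart averaged 14.7 ± 2.71 CPM in OPA1+/- and 5.81 ± 1.80 CPM in OPA1+/+ libraries (SD, n = 4 and 3), a 2.54-fold difference and a log2 fold change of 1.34 ± 0.26 (SE). Bhlhe41 averaged 50.2 ± 12.3 CPM in OPA1+/- and 23.9 ± 2.60 CPM in OPA1+/+ libraries, 2.1-fold, log2 1.07 ± 0.18. Dbp averaged 185 ± 26.3 CPM in OPA1+/- and 102 ± 12.2 CPM in OPA1+/+ libraries, 1.81-fold, log2 0.85 ± 0.12. The estimates of the E-box repressors Ciart and Bhlhe41 were thus larger than that of the activator Dbp, while that of the repressor Bhlhe40, given below, was smaller. Differences between factors were not tested, and the errors of Bhlhe41 and Dbp overlapped. Tef averaged 365 ± 32.2 CPM in OPA1+/- and 243 ± 12.3 CPM in OPA1+/+ libraries, 1.503-fold, log2 0.59 ± 0.07. For each of these 4 the libraries of the genotypes did not overlap, which held for 11.3% of all tested genes (5.78% higher in OPA1+/-). Hlf (log2 -0.05 ± 0.18) and Bhlhe40 (0.13 ± 0.07) overlapped and did not pass. Since this comparison was known when the genes were picked, these counts describe the set and test nothing.

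The number of calls depended on which libraries were used. Tef was past the threshold in each of the 15 fits that left out 1 library, Dbp in 14, Bhlhe41 in 11 and Ciart in 4, while all 4 log2 fold changes stayed positive (Ciart 1.12 to 1.56, Bhlhe41 0.91 to 1.17, Dbp 0.76 to 0.92, Tef 0.54 to 0.63). Of the 4 calls, 1 was left without OPA1+/+ replicate 2, and 2 were left without OPA1+/+ replicate 1, OPA1+/+ replicate 3 or OPA1+/- replicate 4. Without both libraries that held retina transcripts Tef alone was past the threshold, with log2 fold changes of 0.62 for Tef, 0.91 for Dbp, 1.12 for Bhlhe41 and 1.38 for Ciart. Summed markers of corneal endothelium (8 genes) were at 1861 to 1990 CPM in OPA1+/- and 1806 to 1921 CPM in OPA1+/+ libraries at 6 months. Of those 8, 6 had an unadjusted p under 0.05, beside 1614 of all 15770 genes, and 0 passed with edgeR or DESeq2. The 6 went both ways, with Cdh2, Col8a1, Slc4a4 and Car3 higher in OPA1+/- and Slc4a11 and Alcam lower. The median log2 fold change of the 8 markers was 0.10. Their part in the differences of the factors was not tested. In bulk tissue, more cells that express a gene and more of its RNA per cell cannot be told apart. The hour of dissection is not given, so a group difference in these factors cannot be told apart from a difference in that hour. This holds for the comparisons of genotype and of age.

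**Figure D2:**
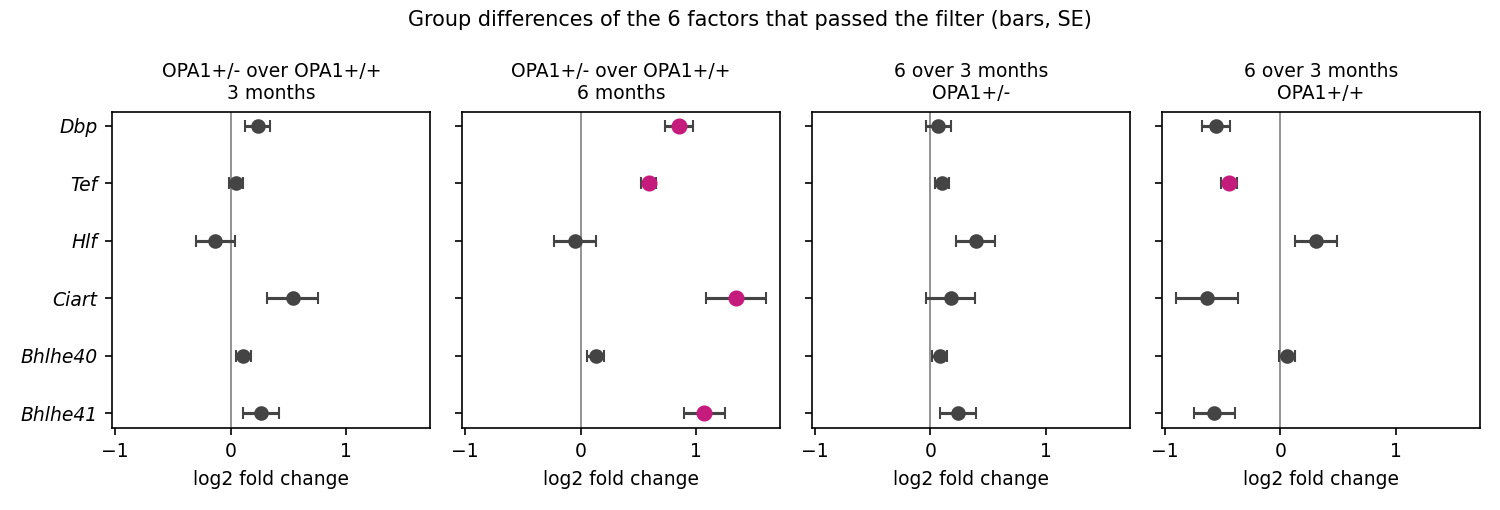
Log2 fold changes of the 6 tested factors (horizontal axis) with SE bars in the genotype comparison at each age and the age comparison in each genotype. Pink points passed an adjusted p of 0.05 over all tested genes, which 4 did for genotype at 6 months and Tef did for age in OPA1+/+.

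The age comparisons use the same 6-month libraries and are described in the same way. In OPA1+/- corneas no factor was past the threshold at 6 months against 3 months, where 0.0824% of all tested genes passed. At an unadjusted p under 0.05 there was 1 of 6, beside 1427 of all 15770 genes, and DESeq2 called 0 of the 6 and 70 of all genes. Log2 differences ran from 0.07 ± 0.11 for Dbp to 0.39 ± 0.17 for Hlf. Hlf was the only one of the 6 without overlap, at 968 ± 32.7 CPM at 6 months and 738 ± 171 CPM at 3 months (SD, n = 4 each), a separation that 6.04% of all tested genes had (2.90% higher at 6 months). Summed markers of stromal keratocytes (8 genes) separated in the same comparison, at 1691 to 2126 CPM at 6 months and 2233 to 2682 CPM at 3 months. Of those 8, 5 had an unadjusted p under 0.05, 0 passed with edgeR, 1 passed with DESeq2, and their median log2 difference was -0.32. Their part in the difference of Hlf was not tested.

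In OPA1+/+ corneas Tef was past the threshold and lower at 6 months, at 243 ± 12.3 CPM (SD, n = 3), against 330 ± 26.1 CPM at 3 months (n = 4), log2 -0.44 ± 0.07 (SE). In that comparison 0.0507% of all tested genes passed (0.0190% lower). Without OPA1+/+ replicate 2 at 3 months, or replicate 2 or 3 at 6 months, the call of Tef was lost, as it was in a fit of the OPA1+/+ groups alone. Dbp (-0.55 ± 0.12), Bhlhe41 (-0.57 ± 0.18) and Ciart (-0.63 ± 0.27) had log2 differences of like size that did not pass with edgeR. At an unadjusted p under 0.05 there were 4 of the 6, beside 1602 of all genes. DESeq2 called 3 of the 6 and 122 of all genes. Tef, Dbp and Bhlhe41 did not overlap between ages, a separation seen for 8.13% of all tested genes (3.71% lower at 6 months), whereas Ciart did. Hlf differed by 0.30 ± 0.18 and Bhlhe40 by 0.06 ± 0.07.

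The difference between the genotype effects of the ages was 0.81 ± 0.34 for Ciart, 0.81 ± 0.23 for Bhlhe41, 0.62 ± 0.16 for Dbp and 0.54 ± 0.09 for Tef on the log2 scale (SE). It was 0.09 ± 0.25 for Hlf and 0.02 ± 0.10 for Bhlhe40. No gene of the 15770 passed an adjusted p of 0.05 in this interaction with edgeR, so percent called was 0. At an unadjusted p under 0.05, 4 of the 6 passed, beside 1090 of all genes, and DESeq2 called 2 of the 6 and 20 of all genes. With edgeR 1 of the 6 passed when replicate 1 of OPA1+/- or replicate 1 of OPA1+/+ at 6 months was left out.

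Ratios of counts within a library set a factor past the threshold at 6 months against a relative that was not, so that their separation follows from the choice of genes. Counts of Dbp per count of Hlf were 0.162 to 0.235 in OPA1+/- and 0.0834 to 0.121 in OPA1+/+ libraries. Counts of Tef per count of Hlf were 0.334 to 0.422 in OPA1+/- and 0.216 to 0.279 in OPA1+/+ libraries, and those of Bhlhe41 per count of Bhlhe40 were 0.159 to 0.246 in OPA1+/- and 0.0975 to 0.117 in OPA1+/+ libraries. For 2 factors that were both past the threshold, Dbp per Tef came to 0.465 to 0.558 in OPA1+/- and 0.386 to 0.442 in OPA1+/+ libraries, a narrower gap.

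Within groups, the factors varied from library to library more than most genes of their level. The pooled within-group SD of log2 CPM was 0.355 for Ciart, 0.245 for Hlf, 0.230 for Bhlhe41 and 0.167 for Dbp. These placed Hlf at the 97.4th percentile of 1577 genes of like abundance, Ciart at the 96.6th, Bhlhe41 at the 94.6th and Dbp at the 93.8th. Bhlhe40 (SD 0.105) and Tef (0.1) were lower, at the 81st and 78.7th percentile.

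Part of that spread was shared between factors. After the mean of each group was removed, so that no group difference remained, 8 of 15 pairs of factors correlated over the 15 libraries at an adjusted p under 0.05 (exact two-sided permutation within groups, 82944 rearrangements, adjusted over the 15 pairs). By Spearman's rho 6 pairs passed. With a block for replicate number, whose numbers are not known to pair libraries, 3 pairs passed. The libraries share depth and scaling, and the share of all gene pairs that correlate to this degree was not measured. The count of 8 pairs thus has no background to be set against, and it is no test of the set. In a search of 11019 genes outside the set, the closest gene to each factor had r of 0.87 to 0.95. Dbp, Tef and Bhlhe41 moved most closely together.

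Dbp and Bhlhe41 had Pearson's r = 0.93 (exact permutation p = 0.00035, adjusted 0.00524) and rho = 0.94 (p = 0.000301, adjusted 0.00289). Dbp and Tef had r = 0.87 (exact permutation p = 0.00238, adjusted 0.0119) and rho = 0.90 (p = 0.00154, adjusted 0.00772). Tef and Bhlhe41 had r = 0.86 (exact permutation p = 0.00206, adjusted 0.0119) and rho = 0.93 (p = 0.000386, adjusted 0.00289). Without the 2 libraries farthest from the median of the first-named gene, these 3 coefficients were 0.90, 0.84 and 0.77, with exact permutation p of 0.00559, 0.00945 and 0.0276, so they did not rest on those libraries.

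Ciart followed the same 3 genes less closely. It had r = 0.77 with Dbp (exact permutation p = 0.00377, adjusted 0.0125; rho = 0.74, p = 0.00852, adjusted 0.0256) and r = 0.71 with Tef (exact permutation p = 0.00799, adjusted 0.0183; rho = 0.67, p = 0.0159, adjusted 0.0398). With Bhlhe41 it had r = 0.67 (exact permutation p = 0.00852, adjusted 0.0183; rho = 0.62, p = 0.0271, adjusted 0.0581). Without the 2 farthest libraries these fell to 0.65, 0.55 and 0.53, with exact permutation p of 0.05, 0.103 and 0.131, so that without those libraries the relations with Tef and with Bhlhe41 no longer passed and that with Dbp was at the threshold. All 3 coefficients remained positive over the 13 libraries left.

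Hlf moved against Tef, with r = -0.62 (exact permutation p = 0.00416, adjusted 0.0125) and rho = -0.62 (p = 0.00434, adjusted 0.0163), and r = -0.63 without the 2 farthest libraries (exact permutation p = 0.0127). With Bhlhe40 it had r = 0.67 (exact permutation p = 0.0165, adjusted 0.0310; rho = 0.63, p = 0.0344, adjusted 0.0645), which fell to 0.36 (exact permutation p = 0.153) without the 2 farthest libraries and so rested on them. Because Hlf at 3 months split into 4 high and 4 low libraries, its relations within those sets were not tested. Its r with Dbp (-0.48), Ciart (-0.48) and Bhlhe41 (-0.43) did not pass, and Bhlhe40 had r between -0.22 and 0.20 with the 4 factors other than Hlf. Of the 8 pairs, 4 were left without OPA1+/+ at 3 months replicate 1 and 5 without OPA1+/+ at 6 months replicate 2.

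**Figure D3:**
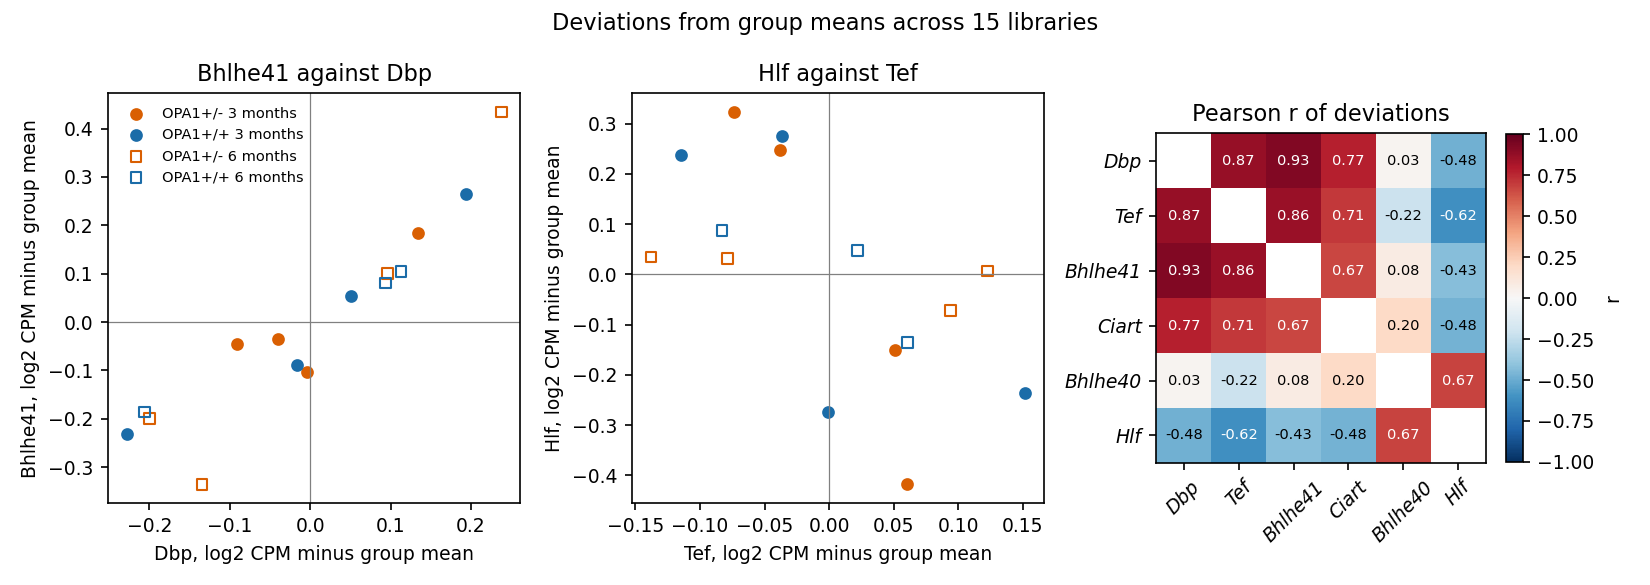
Deviations of log2 CPM from the group mean, 1 point per library, for Bhlhe41 against Dbp and for Hlf against Tef, and Pearson's r for every pair of the 6 tested factors. Dbp, Tef, Bhlhe41 and Ciart form a block with r of 0.67 to 0.93, and Hlf has negative r with all 4.

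Among 17 tested genes of the core clock loop, 0 passed at 3 months with edgeR and 0 with DESeq2. At an unadjusted p under 0.05 there were 2, beside 1424 of all 15770 genes. The nearest was Nr1d1, which encodes the repressor Rev-erb alpha, at 249 ± 34.8 CPM in OPA1+/- and at 179 ± 38.8 CPM in OPA1+/+ libraries (SD, n = 4 each; log2 0.48 ± 0.16, edgeR adjusted p 0.421). At 6 months 2 were past the threshold and higher in OPA1+/- than in OPA1+/+ corneas, and 0 were past it and lower. At an unadjusted p under 0.05 there were 7 of the 17, beside 1614 of all 15770 genes. Of those 7, Per2, Per3, Cry2 and Nr1d2 were higher in OPA1+/- and Clock, Npas2 and Arntl lower. DESeq2 called 6, of which 3 were higher and 3 lower, so differences in the loop went both ways. Nr1d2 (Rev-erb beta) had 193 ± 18.0 CPM in OPA1+/- libraries, against 139 ± 10.8 CPM in OPA1+/+ libraries (SD, n = 4 and 3; log2 0.47 ± 0.07). Per3, a period gene that itself oscillates, had 323 ± 31.05 CPM in OPA1+/- libraries, against 254 ± 7.50 CPM in OPA1+/+ libraries (log2 0.34 ± 0.06). Of these 2 calls, 1 was left when OPA1+/- replicate 3 or OPA1+/+ replicate 1 was dropped from the 6-month libraries, and 0 when OPA1+/+ replicate 2 was. This list too was drawn up with earlier results known, so its comparisons at 6 months are descriptions without p-values, and its median log2 fold change was 0.08 at 6 months, beside 0.00 for all tested genes. In OPA1+/- corneas 0 of the 17 passed between ages, with 2 at an unadjusted p under 0.05 and 0 with DESeq2. In OPA1+/+ corneas Per3 was lower at 6 months, at 254 ± 7.50 CPM, against 327.5 ± 6.32 CPM at 3 months (log2 -0.37 ± 0.06) and past the threshold. In that comparison 7 of the 17 had an unadjusted p under 0.05, beside 1602 of all genes, and DESeq2 called 5.

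Arntl, which encodes the activator Bmal1, ran with Hlf. At 3 months it had 16.0, 10.2, 26.6 and 21.97 CPM in OPA1+/- libraries, against 24.6, 21.0, 12.6 and 12.1 CPM in OPA1+/+ libraries. The 4 libraries high in Hlf were the 4 high in Arntl in these 8. At 6 months Arntl had 23.8, 19.7, 18.2 and 19.1 CPM in OPA1+/- libraries, against 39.4, 51.3 and 54.3 CPM in OPA1+/+ libraries, without overlap and without passing the threshold of edgeR (log2 -1.26 ± 0.30). Hlf did not share that difference at 6 months, where its groups overlapped.

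As a description over the 15 libraries, which share depth and scaling, deviations of Hlf and Arntl had r = 0.82. Clock had r = -0.85 with Bhlhe41, -0.84 with Tef, -0.81 with Dbp and -0.74 with Ciart. Cry2, a cryptochrome repressor, had r = 0.89 with Bhlhe41, 0.86 with Dbp and 0.79 with Tef. The factors that moved together were thus low where Clock was high and high where Cry2 was high.

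**Figure D4:**
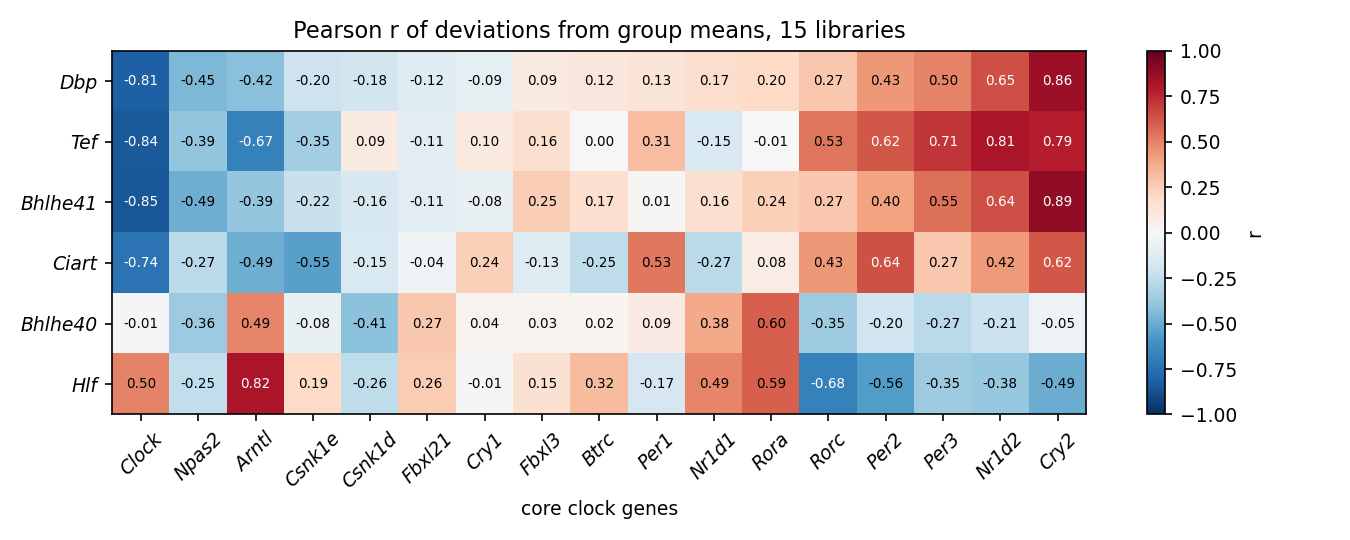
Pearson's r of deviations from group means over 15 libraries between the 6 tested factors (rows) and 17 core clock genes (columns). Clock is negative and Cry2 positive for Dbp, Tef, Bhlhe41 and Ciart, and Hlf has its highest value with Arntl.

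Across genes with a mean of at least 5 CPM (11019), the 7 factors themselves left aside, the closest in pattern to Tef was Tnip2 (r = 0.95), followed by Hook2 (0.90) and Cbr2 (0.89), and the most opposed was Bag6 (-0.88). Outside the 7 factors, Tnip2 was also the closest to Bhlhe41 (0.91, below the r of Bhlhe41 with Dbp), ahead of Cry2 (0.89) and Cpeb1 (0.85), with Sufu most opposed (-0.88). For Dbp the closest outside the set were Cds2 (0.92), Tnip2 (0.92) and Angptl4 (0.89), all below its r with Bhlhe41, and Poll was most opposed (-0.89). Tnip2 thus stood among the 3 closest other genes of 3 factors, which themselves moved together.

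Hlf was closest to Wbp2 (0.93), Os9 (0.91) and Espl1 (0.87), and most opposed to Commd2 (-0.92). Ciart was closest to Cep57l1 (0.87), Zfp617 (0.87) and Psmb5 (0.86), and most opposed to Epb41 (-0.85). Bhlhe40 was closest to Pign (0.87), Lnx1 (0.86) and Bag2 (0.85), and most opposed to Mtss1l (-0.87). These 3 factors shared no gene among their closest. These coefficients come from a search of many genes over 15 libraries and are given as descriptions.

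Genes known as PAR bZIP targets in mouse liver, kidney and brain were read next. Of 12 listed, 7 were tested. None of the 7 passed with edgeR in any of the 4 comparisons of genotype or age. Between ages, 1 had an unadjusted p under 0.05 in OPA1+/- and 1 in OPA1+/+ corneas, and DESeq2 called 0. At 6 months between genotypes 2 had an unadjusted p under 0.05, and DESeq2 called 1. Those 2 of the 7 were Ephx1, an epoxide hydrolase of detoxification, at 135 ± 5.92 CPM in OPA1+/- and at 110 ± 7.51 CPM in OPA1+/+ libraries (SD, n = 4 and 3; log2 0.30 ± 0.07), and Pdxk, the kinase that makes pyridoxal phosphate, at 243 ± 10.2 CPM in OPA1+/- and at 212 ± 18.8 CPM in OPA1+/+ libraries (log2 0.20 ± 0.06). This list was also drawn up with earlier results known, so its comparisons with 6-month libraries are descriptions. The median of the 7 was 0.11. At 3 months 2 of the 7 had an unadjusted p under 0.05, and DESeq2 called 0. They went opposite ways, and the median of the 7 was 0.00. Gstt1, a glutathione transferase, was at 6.51 ± 1.19 CPM in OPA1+/- and at 4.54 ± 0.416 CPM in OPA1+/+ libraries (SD, n = 4 each; log2 0.52 ± 0.14, edgeR adjusted p 0.258). Fmo5, a flavin-containing monooxygenase, was at 27.0 ± 2.01 CPM in OPA1+/- and at 32.7 ± 6.96 CPM in OPA1+/+ libraries (log2 -0.27 ± 0.13, edgeR adjusted p 0.543).

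A list of 12 genes that cycle in many mouse tissues was likewise drawn up with earlier results known, so its comparisons with 6-month libraries are descriptions. Tspan4, which encodes a tetraspanin, was past the threshold of edgeR between genotypes at 6 months. It had 9.52 ± 1.24 CPM in OPA1+/- libraries, against 5.34 ± 1.07 CPM in OPA1+/+ libraries (SD, n = 4 and 3; log2 0.84 ± 0.16). The other 11 did not pass with edgeR, and the median of the 12 was -0.06. At an unadjusted p under 0.05 there were 5 of the 12, beside 1614 of all genes, and DESeq2 called 3. Those of the 5 other than Tspan4 were lower in OPA1+/- and did not overlap between genotypes. In OPA1+/+ corneas Cdkn1a, the cell cycle inhibitor p21, rose to 129 ± 8.37 CPM at 6 months, against 100.2 ± 4.91 CPM at 3 months (log2 0.37 ± 0.06). It was past the threshold of edgeR, as were 0.0507% of all tested genes. In that comparison 5 of the 12 had an unadjusted p under 0.05, beside 1602 of all genes, and DESeq2 called 3. Between genotypes at 3 months 0 of the 12 passed with edgeR, 2 at an unadjusted p under 0.05 and 0 with DESeq2.

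Glucocorticoids and low oxygen are known to act on some of these factors. Of 13 glucocorticoid-responsive genes, 0 passed between genotypes with edgeR at 3 or at 6 months. At 3 months 2 had an unadjusted p under 0.05, beside 1424 of all 15770 genes, and DESeq2 called 0. At 6 months 1 had an unadjusted p under 0.05, beside 1614 of all genes, and DESeq2 called 1. Of the 13 log2 fold changes, 3 were positive at 3 months, with a median of -0.17, and 4 at 6 months, with a median of -0.16. Tsc22d3 (Gilz) had the smallest p at 3 months, at 90.4 ± 30.6 CPM in OPA1+/- and at 174 ± 37.7 CPM in OPA1+/+ libraries without overlap (SD, n = 4 each; log2 -0.95 ± 0.31, edgeR adjusted p 0.417). Zbtb16 followed, at 18.7 ± 3.82 CPM in OPA1+/- and at 36.1 ± 6.83 CPM in OPA1+/+ libraries without overlap (log2 -0.95 ± 0.39, edgeR adjusted p 0.496). Such a separation was seen for 4.58% of all tested genes.

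Of 12 hypoxia-responsive genes, 0 passed between genotypes with edgeR at 3 or at 6 months. At 3 months 8 of the 12 had an unadjusted p under 0.05, where 1424 of all 15770 genes had one, and DESeq2 called 0 of the 12. At 6 months 4 of the 12 had an unadjusted p under 0.05, beside 1614 of all genes, and DESeq2 called 1 of the 12 and 170 of all genes. At 3 months 11 of the 12 log2 fold changes were positive, with a median of 0.22. Bnip3, a mitophagy receptor, was at 3.66 ± 0.137 CPM in OPA1+/- and at 1.72 ± 0.302 CPM in OPA1+/+ libraries at 3 months (SD, n = 4 each; log2 1.08 ± 0.25, edgeR adjusted p 0.208). In OPA1+/+ corneas Egln3, an oxygen-sensing prolyl hydroxylase, rose to 812 ± 68.5 CPM at 6 months, against 640.5 ± 22.8 CPM at 3 months (log2 0.34 ± 0.06), past the threshold of edgeR. As with the other lists, comparisons of these genes with 6-month libraries are descriptions. Bhlhe40, which also responds to hypoxia, passed in no comparison, while the other Dec repressor, Bhlhe41, was past the threshold between genotypes at 6 months. The part of low oxygen or of glucocorticoids in the differences of the factors was not tested.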

How the data were processed

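Files deposited by the authors give whole-number counts of reads for each gene. According to the headers these come from featureCounts 2.0.1, per exon and summed by gene identifier, on the reverse strand, with GENCODE mouse annotation release M28, so that genes on opposite strands are kept apart. The build mm10 and DESeq2 are named in the submitters' processing notes, and no aligner is named there. The deposited exon length of each gene was used for levels per kilobase. Symbols matched 52081 of 55357 genes (94.1%).

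The 7 genes and all gene lists were chosen with earlier results of these data known. CPM are counts per 1e6 of the library total after TMM scaling (factors 0.986 to 1.02). Genes kept by filterByExpr (15770) were fitted in edgeR 4.0.16 (R 4.3.3) with 1 mean per group over 15 libraries, 11 residual degrees of freedom, robust quasi-likelihood tests and a Benjamini-Hochberg threshold of 0.05. Errors of log2 fold changes are the fold change over the square root of F. Deviations are log2 CPM (prior count 2) minus the group mean. Genes named are the 7, Opa1, up to 4 genes per list and comparison past the threshold or otherwise the 2 with the smallest p, some of which are left out of the text, and the 3 closest and 1 most opposed genes to each factor. Arntl, Clock and Cry2 were added to these after their values were seen. The procedure was tested on simulated counts. No pair of libraries of the same group agreed within counting noise, and pairs between groups were not compared. Same-numbered libraries correlated at -0.14 to 0.23 over 14 pairs, so the numbers were not taken to pair samples. Alternatives were DESeq2 1.42.0, its size factors, other filters, a replicate block, the groups compared alone and each library left out, and, added after seeing the data, leaving out both libraries with retina transcripts. Intervals from depth cover counting error only.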

Additional observations from a re-analysis of the deposited data

How the results depend on the processing

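All 654 refitted log2 fold changes of the 6 factors, over 22 other settings, moved by less than the within-group SD of the gene or, at 3 months, kept their side of the threshold. Values near 0 crossed it with 1 library left out for Dbp for age in OPA1+/- (-0.01 to 0.13) and for Bhlhe40 for age in OPA1+/+ (-0.0004 to 0.0949). The same held for Hlf (-0.03 to 0.20) and Bhlhe40 (-0.03 to 0.08) in the interaction. Counts of calls moved more. Leaving out 1 library at a time gave 1 to 4 factors past the threshold at 6 months, 0 to 1 for age in OPA1+/+, 0 to 1 in the interaction, 0 to 3 core clock genes at 6 months and 4 to 9 correlated pairs. The DESeq2 Wald test called 6 core clock genes at 6 months, 3 factors for age in OPA1+/+ and 2 in the interaction. A fit of the groups compared alone called 5 core clock genes at 6 months and 0 factors for age in OPA1+/+. With no filter on low counts 1 factor passed in the interaction. Without the libraries with retina transcripts 1 factor and 1 core clock gene passed at 6 months, and 8 pairs correlated. With the replicate block, whose numbers are not known to pair the samples, 3 factors passed at 6 months, 0 for age in OPA1+/+, and 3 pairs correlated. The cause of these shifts was not tested. At 6 months the count over all genes was 51, and 170 with DESeq2, 140 with no filter and 2 to 84 with 1 library left out. Depth limits Nfil3 alone among the 7, and 3 OPA1+/+ libraries at 6 months limit every comparison that uses them.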
